A study of Sus scrofa with 9 samples.

Results

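The contractile genes of myoepithelium were followed in the sow mammary gland through 8 gene symbols: ACTA2, ACTG2, MYL9, MYLK, TAGLN, CNN1, MYH11 and OXTR. The members were all probe sets of the array that the platform annotation gives to exactly 1 of these symbols. MYH11, the smooth muscle myosin heavy chain, had no such probe set and is not analysed here. The other 7 genes, of 6765 genes with a probe set of their own, gave 8 probe sets, since ACTG2 had 2. Probe sets were assigned by the annotation alone.

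Myoepithelial cells lie between the milk-secreting epithelium and the basement membrane and contract when oxytocin reaches the gland, which drives milk into the ducts. Their contraction is of the smooth muscle kind: the oxytocin receptor raises cell calcium, calcium and calmodulin activate myosin light chain kinase, and the phosphorylated regulatory light chain lets myosin pull on actin. The same proteins make up the contractile apparatus of smooth muscle cells around blood vessels, and some of them appear in activated fibroblasts.

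The gland of 6 Large White sows, fed on corn and soybean meal, was biopsied at 3 stages, and the labels name no treatment. These were late pregnancy, 17 days before parturition (day -17), the start of lactation, 1 day after it (day 1), and established lactation, 17 days after it (day 17). Every Affymetrix porcine array received equal volumes of the RNA of 2 sows, and with 3 such pools a day there were 9 arrays. An array is therefore a mean of 2 animals and a mixture of all cells of a biopsy, and fewer cells of a type cannot be told apart from less RNA per cell. The values are MAS5 signals, a linear brightness per probe set, with all arrays scaled to the same trimmed mean. Differences are log2 of the later day minus the earlier day ± standard error in limma, with n = 3 pools a day. A probe set "rose" or "fell" only where the Benjamini-Hochberg adjusted p over all 15519 tested probe sets was under 0.05. To be tested, a probe set had to reach each array's 40th percentile, a signal of 82.1 to 94.2 (the filter level), on 3 or more of the 9 arrays.

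The arrays had no depth to report, and their number limits the precision. Between 2 pools of a day, Spearman's rho over probe sets was 0.954 to 0.976. On day 1 against day -17, 1860 of the tested probe sets rose and 1876 fell. The counts were 1090 and 1026 on day 17 against day 1, and 3367 and 3856 on day 17 against day -17. These splits depend on the scaling. The 27 probe sets of spiked control transcripts (bioB, bioC, bioD and cre) were brighter by 0.42, 0.86 and 1.28 log2 in the 3 comparisons, and scaling the arrays to them lowered every difference by that much. The median over all tested probe sets was then -0.48, -0.87 and -1.36, against -0.07, -0.0092 and -0.08 as deposited. With that scaling 833 rose and 6141 fell in the first comparison, 115 and 10838 in the second, and 486 and 12571 in the third. Median centring gave 2282 rises and 1251 falls for day 1 against day -17. Directions below are relative to the trimmed mean of the array, and those that flip are named.

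The tissue was checked against marker genes. The 7 milk protein genes summed to 60484 to 85934 on day -17, 216822 to 304308 on day 1 and 458643 to 468487 on day 17. Of 17 skeletal muscle markers, 13 had a probe set and only 1 of them, TNNI2, reached the filter; the 13 together summed to 304 to 727 over the 9 arrays. Of 14 basal and myoepithelial markers other than the contractile genes, 5 had a probe set, and KRT5, KRT14, KRT17 and TP63 were not among them. ITGA6, COL17A1 and CDH3 lay below the filter level on all 9 arrays, and of the 5 only DST and TRIM29 were tested. The label of a myoepithelial origin could therefore not be checked on defining basal markers, and the values below are those of contractile genes in whole tissue.

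ACTA2 encodes smooth muscle alpha actin, the thin filament protein by which myoepithelium is usually recognised in tissue sections (probe set Ssc.941.1.S1_at). Its signals in pools 1, 2 and 3 were 15945, 20536 and 17938 on day -17, 23134, 24660 and 20193 on day 1, and 22442, 29552 and 26304 on day 17. All 3 day 17 pools lay above all 3 day -17 pools, while day 1 overlapped with both. ACTA2 rose on day 17 against day -17 (0.52 ± 0.14, 1.44-fold, adjusted p = 0.0108), a direction that flips when scaled to the spiked controls (-0.75, adjusted p = 0.000733). After quantile normalization the difference was 0.04 and did not pass (adjusted p = 0.848). The percentile of ACTA2 on its array was 99.44 to 99.71 on day -17 and 99.47 to 99.65 on day 17, so its rank hardly differed. The steps between neighbouring days did not pass, at 0.32 ± 0.14 for day 1 against day -17 (adjusted p = 0.111, 95% interval 0.02 to 0.63) and 0.20 ± 0.14 for day 17 against day 1 (adjusted p = 0.358, -0.11 to 0.50). With median centring the first of these did pass (0.44, adjusted p = 0.0377), and scaled to the spiked controls the second was a fall (-0.66, adjusted p = 0.00294).

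ACTG2 encodes smooth muscle gamma actin, a close relative of ACTA2 found in enteric and other visceral smooth muscle, and its probe sets gave opposite pictures. They are called brighter (Ssc.10316.1.S1_at) and dimmer (Ssc.6145.1.A1_at) from their mean log2 signal, as names only. The brighter probe set had signals of 3394, 3457 and 3968 on day -17, 16125, 16572 and 12065 on day 1, and 6615, 17996 and 13084 on day 17. Every pool of days 1 and 17 lay above every pool of day -17, and day 17 pool 1 was the lowest of the 6. It rose 4.11-fold on day 1 against day -17 (2.04 ± 0.30, adjusted p = 0.00142) and 3.22-fold on day 17 against day -17 (1.69 ± 0.30, adjusted p = 0.00137). Scaled to the spiked controls, the rise on day 1 was 1.62 (adjusted p = 0.00314) and the difference on day 17 was 0.41 and did not pass (adjusted p = 0.238). Days 17 and 1 did not differ beyond their spread (-0.35 ± 0.30, adjusted p = 0.461, 95% interval -1.01 to 0.31). That difference was 0.055 without day 17 pool 1 and passed when scaled to the spiked controls (-1.21, adjusted p = 0.00637).

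The dimmer ACTG2 probe set had signals of 4195, 2210 and 2354 on day -17, 3068, 2474 and 1217 on day 1, and 691, 815 and 668 on day 17. All 3 day 17 pools lay below the 6 others, and days 1 and -17 overlapped. It fell on day 17 against day -17 (-1.95 ± 0.33, adjusted p = 0.00112) and on day 17 against day 1 (-1.54 ± 0.33, adjusted p = 0.0156), but against day 1 it did not pass when day 17 pool 1 (adjusted p = 0.0536) or pool 3 (0.0558) was left out. Day 1 against day -17 did not pass (-0.41 ± 0.33, adjusted p = 0.39). It was highest in pool 1 on day -17 and on day 1. The summed signal of 9 fibroblast marker genes was also highest there, at 72479, 42394 and 54107 in pools 1, 2 and 3 on day -17 and 61242, 18967 and 27989 on day 1. On day 17 it was 20793, 21374 and 18761. The sums of the basal, vascular, endothelial and adipocyte marker lists were likewise highest in pool 1 on days -17 and 1. That of the luminal list was lowest in pool 1 on both days, and the milk protein and skeletal muscle lists had another highest pool. The high pool is therefore not particular to fibroblast markers. The part of any of these cell types in this probe set was not tested.

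Within an array the ratio of the brighter to the dimmer ACTG2 probe set was 0.809, 1.56 and 1.69 on day -17, 5.26, 6.70 and 9.91 on day 1, and 9.58, 22.1 and 19.6 on day 17. These probe sets therefore changed unequally, and no single value can be given for the gene. The array has 2 pairs of control probe sets at the ends of an actin transcript, and they did not run alike. The 3' over 5' signal ratio of the first was 7.01 to 7.26 on day -17, 8.39 to 9.57 on day 1 and 14.5 to 15.9 on day 17. That of the second was 0.815 to 1.87, 1.64 to 4.16 and 1.25 to 2.28 on the same days, which overlapped. The ratio for the EF1A controls was 1.26 to 1.43, 1.31 to 1.55 and 1.81 to 1.99 on the same days, and that for the GAPDH controls ran the other way, at 2.38 to 3.06, 2.25 to 2.32 and 1.77 to 1.98. Their part in the ACTG2 ratio was not tested, nor was binding of RNA from the closely related actins ACTA2, ACTB and ACTG1 to these probe sets.

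**Figure D1:**
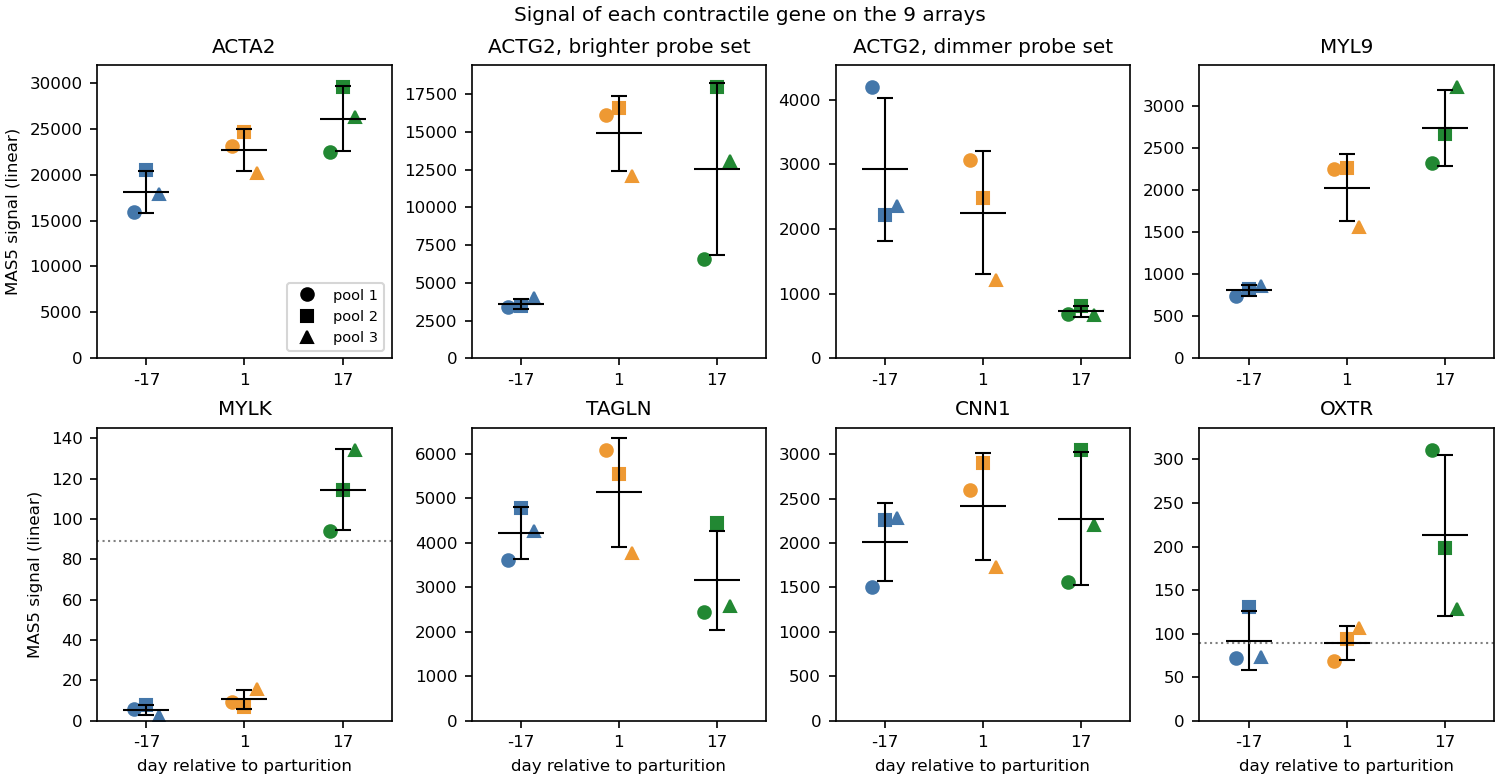
MAS5 signal (linear, each panel from 0) of the 8 probe sets on days -17, 1 and 17; symbols are pools 1 to 3, and the bar with whiskers is the mean ± SD of the 3 pools. The dotted line in the MYLK and OXTR panels is the median filter level of the 9 arrays; MYLK lies above it only on day 17, and the ACTG2 probe sets run in opposite directions on day 17 against day -17.

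**Figure D2:**
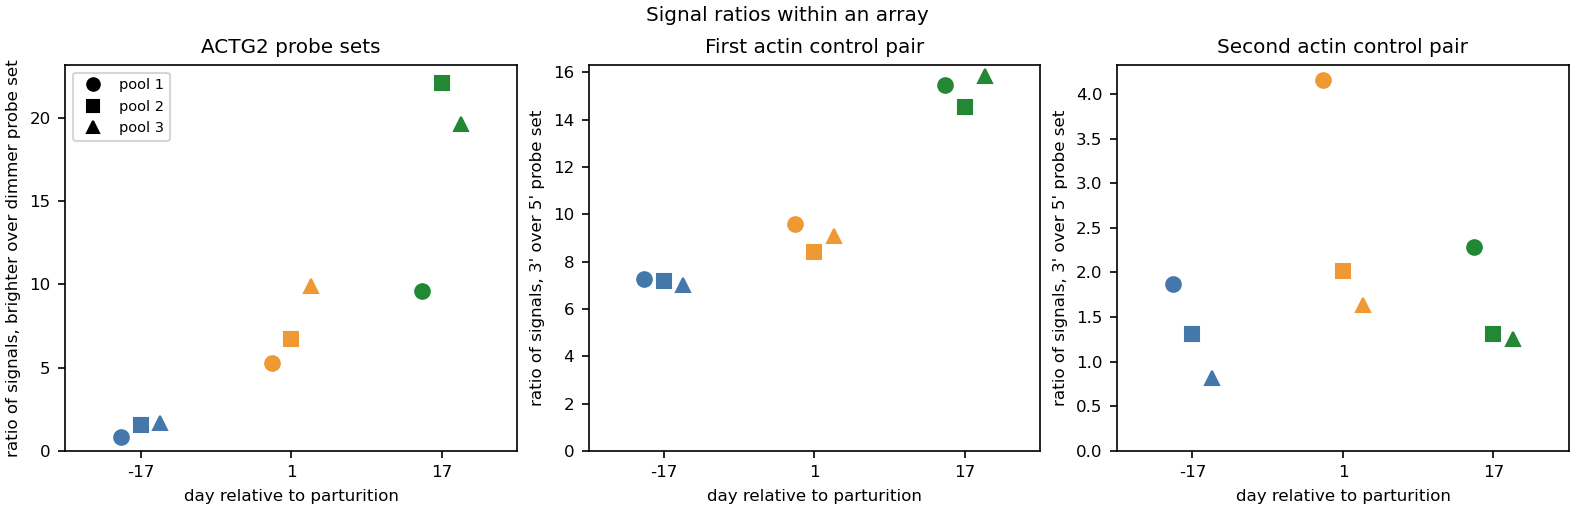
Left, signal of the brighter over the dimmer ACTG2 probe set on each array; middle and right, signal of the 3' over the 5' probe set of the first and second actin control pair on the same arrays, by day and with symbols for pools. The days do not overlap for the first actin pair, at 7.01 to 7.26, 8.39 to 9.57 and 14.5 to 15.9, and do overlap for the second.

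MYL9 encodes a regulatory light chain of smooth muscle myosin, the protein that the light chain kinase phosphorylates (Ssc.9125.1.S1_at). Its signals were 737, 816 and 862 on day -17, 2248, 2257 and 1563 on day 1, and 2320, 2662 and 3221 on day 17. The 3 days did not overlap at all, in the order -17, 1, 17. MYL9 rose 2.48-fold on day 1 against day -17 (1.31 ± 0.18, adjusted p = 0.00092) and 3.37-fold on day 17 against day -17 (1.75 ± 0.18, adjusted p = 5.74e-05). The step from day 1 to day 17 did not pass (0.44 ± 0.18, adjusted p = 0.123, 95% interval 0.05 to 0.84) and turned to -0.42 when scaled to the spiked controls. Under that scaling the rises of MYL9 over day -17 were 0.89 on day 1 (adjusted p = 0.00481) and 0.48 on day 17 (adjusted p = 0.0372).

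MYLK, the light chain kinase that starts contraction, was measured by a dim probe set (Ssc.16164.1.S1_at). Its signals were 5.62, 7.75 and 2.54 on day -17, 9.37, 6.84 and 15.7 on day 1, and 94.4, 115 and 135 on day 17. All 6 values of days -17 and 1 lay below the filter level and the day 17 values just above it, so the probe set was tested only because of day 17 and had to differ. The fit gave 4.56 ± 0.98 for day 17 against day -17 (adjusted p = 0.004) and 3.50 ± 0.98 for day 17 against day 1 (adjusted p = 0.0413). Such folds rest on signals near the bottom of the range: with a pseudocount of 16 they were 6.11-fold and 4.91-fold, against 23.6-fold and 11.3-fold without it. Against day 1 it no longer passed when any 1 of the 6 arrays of these days was left out (adjusted p from 0.0571 to 0.138), after quantile normalization (0.0534) or with the pool number as a block (0.0619). Day 1 against day -17 did not pass (1.06 ± 0.98, adjusted p = 0.459).

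TAGLN, or transgelin, is an actin-binding protein of smooth muscle that stabilises filament bundles (Ssc.11913.1.S1_at). Its signals were 3616, 4782 and 4258 on day -17, 6098, 5539 and 3763 on day 1, and 2452, 4442 and 2586 on day 17. The days overlapped in every pairing, through day 1 pool 3 and day 17 pool 2. No difference of TAGLN passed: 0.26 ± 0.25 for day 1 against day -17 (adjusted p = 0.464), -0.72 ± 0.25 for day 17 against day 1 (adjusted p = 0.0766) and -0.46 ± 0.25 for day 17 against day -17 (adjusted p = 0.145). With the pool number as a block, day 17 against day 1 passed (-0.72, adjusted p = 0.0357), and in each of the 3 numbers the day 17 pool was lower than the day 1 pool. With day 1 pool 3 left out, it also passed (-0.93, adjusted p = 0.0493). With day 17 pool 2 left out, both comparisons of day 17 passed (adjusted p = 0.0279 against day 1 and 0.0241 against day -17). Scaling to the spiked controls gave -1.58 (adjusted p = 0.000687) and -1.74 (adjusted p = 0.000167) for these comparisons.

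CNN1, or calponin 1, binds actin and restrains the myosin ATPase (Ssc.9013.1.S1_at). Its signals were 1509, 2262 and 2277 on day -17, 2600, 2901 and 1734 on day 1, and 1566, 3052 and 2205 on day 17. The days overlapped in every pairing, and the differences were 0.25 ± 0.27 for day 1 against day -17 (95% interval -0.36 to 0.86), -0.10 ± 0.27 for day 17 against day 1 (-0.71 to 0.50) and 0.15 ± 0.27 for day 17 against day -17 (-0.46 to 0.75). None passed (adjusted p = 0.532, 0.829 and 0.684), and the intervals leave room for changes as large as their bounds, which are not symmetric around 0. Scaled to the spiked controls CNN1 was lower on day 17 than on day 1 (-0.96, adjusted p = 0.0134) and than on day -17 (-1.13, adjusted p = 0.00399).

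OXTR, the oxytocin receptor that starts the contraction of milk ejection, was measured close to the filter level (Ssc.108.1.S1_at). Its signals were 71.9, 131 and 73.6 on day -17, 68.4, 93.8 and 106 on day 1, and 311, 199 and 128 on day 17. The probe set reached the filter level on 6 of the 9 arrays, among them all of day 17. The day 17 pools lay above those of day 1, but day 17 pool 3 lay below day -17 pool 2. OXTR rose 2.25-fold on day 17 against day -17 (1.17 ± 0.38, adjusted p = 0.0282), a direction that flips to -0.11 when scaled to the spiked controls. It no longer passed when any 1 of 4 arrays was left out, namely pools 1 (adjusted p = 0.0824) and 3 (0.088) of day -17 and pools 1 (0.11) and 2 (0.0658) of day 17. Day 17 against day 1 did not pass (1.18 ± 0.38, adjusted p = 0.0645) except with day 17 pool 3 left out (adjusted p = 0.049), and day 1 against day -17 gave -0.0089 ± 0.38 (adjusted p = 0.99).

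On day 1 against day -17, 2 of the 8 member probe sets rose and 0 fell, where 24.1% of all tested probe sets were called, 12% higher and 12.1% lower. By an unadjusted p under 0.05 the count was 3, with ACTA2 as the third, beside 38.2% of all tested probe sets. The pools of these days did not overlap for 2 of the 8, both higher on day 1, beside 40.8% of all tested probe sets (19.3% higher and 21.5% lower). The median of the 8 differences was 0.29, beside -0.07 over all tested probe sets, and -0.13 when scaled to the spiked controls.

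On day 17 against day 1, 1 member probe set rose and 1 fell, with 13.6% called in the whole table, 7.02% higher and 6.61% lower. The rise was that of MYLK, which was tested only because of day 17 and had to differ. No other member rose, and the call of MYLK adds nothing to the comparison with the whole table. Pools did not overlap for 3 higher members (MYL9, MYLK and OXTR) and 1 lower member, beside 34.7% of the whole table (18.2% higher and 16.5% lower). The medians were 0.05 and -0.0092. Scaled to the spiked controls, 1 rose and 5 fell with a median of -0.81, and the median also turned after quantile normalization (-0.097). It turned as well with the stricter filter, which tests neither MYLK nor OXTR (-0.23). Without day 1 pool 3 it was -0.10, and without day 17 pool 2 it was -0.12. The median kept its sign in the other settings. On day 17 against day -17, 5 rose and 1 fell, with 46.5% called in the whole table, 21.7% higher and 24.8% lower. Pools did not overlap for 4 higher and 1 lower member, beside 59% of the whole table (27.5% higher and 31.5% lower). The 5 that rose and the 4 higher members both include MYLK, which had to differ. The medians were 0.85 and -0.08. This split turns with the scaling: scaled to the spiked controls, 2 members rose and 4 fell, with a median of -0.43.

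The 3 comparisons share arrays, and since MYLK passed the filter only through day 17 these counts are a description. In comparisons with day -17, the brighter ACTG2 probe set and MYL9 were called on day 1 and on day 17. ACTA2, MYLK, OXTR and, as a fall, the dimmer ACTG2 probe set were called on day 17 alone, while TAGLN and CNN1 were called on neither day. Whether the first moved earlier than the others was not tested.

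**Figure D3:**
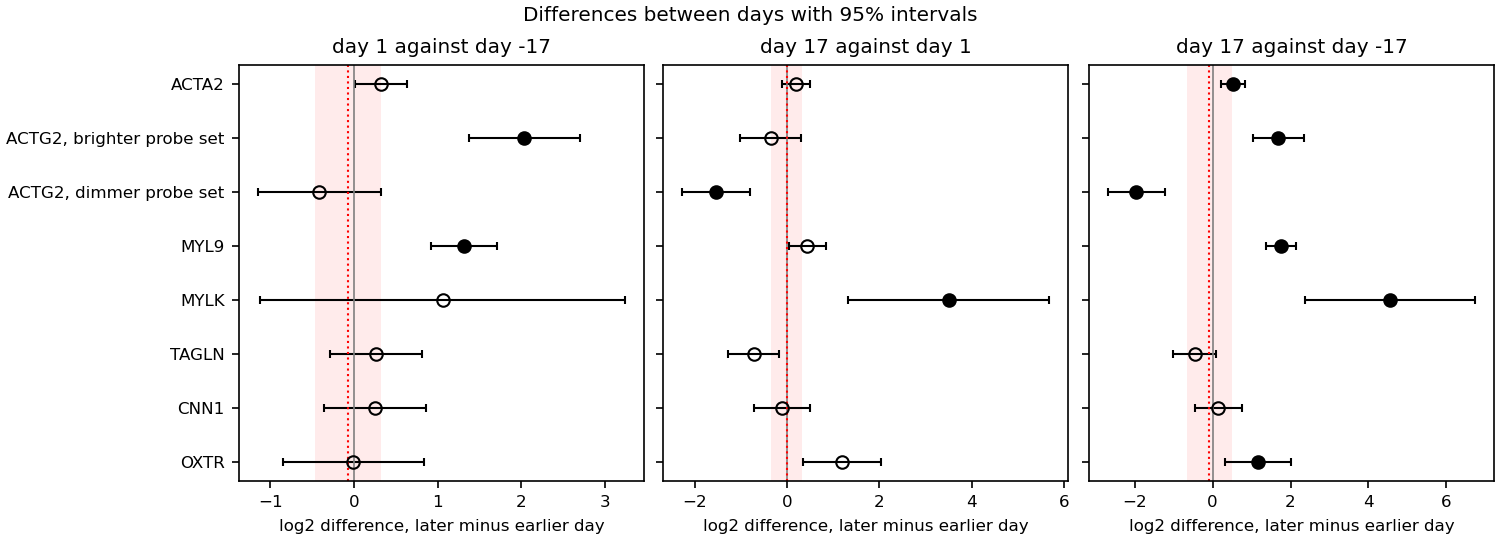
Log2 difference of the later minus the earlier day for each of the 8 probe sets, with 95% intervals from limma; filled points had an adjusted p under 0.05. The dotted line and the band mark the median and the interquartile range of all tested probe sets; in the panel of day 17 against day -17 the points of ACTA2, CNN1 and OXTR change sign when arrays are scaled to the spiked controls.

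Pools of the same day differed from each other in a way that several members shared. On day 17, pool 1 was the lowest for 6 of the 8 probe sets, where it was the lowest for 36.2% of all tested ones, and pool 2 was the highest for 5 of 8 (34.2%). On day 1, pool 3 was the lowest for 6 of 8 (32.1% of all), and on day -17 pool 1 was the lowest for 6 of 8 (42.6%). After each day's mean had been taken off the log2 signals, CNN1 and ACTA2 deviated together over the 9 arrays (r = 0.94), and 0.058% of the other tested probe sets had a higher r with CNN1 than ACTA2 had. TAGLN and CNN1 had r = 0.89 (0.296% higher), the brighter ACTG2 probe set and CNN1 0.85 (0.992% higher), and MYL9 and CNN1 0.71 (4.54% higher). Pairs among ACTA2, TAGLN and the brighter ACTG2 probe set had r of 0.75 to 0.85. MYL9 was less close to these, with r of 0.64 for ACTA2, 0.61 for the brighter ACTG2 probe set and 0.49 for TAGLN. Of the other tested probe sets, 6.25%, 7.44% and 13.1% had a higher r with MYL9 than these had.

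Over the 9 arrays, the dim probe sets of MYLK and OXTR did not deviate together with CNN1 (r of -0.31 and -0.24), and the dimmer ACTG2 probe set had 0.21. On single days they did share the lowest pool: MYLK was lowest in pool 1 on day 17 and OXTR in pool 1 on day -17, and the counts above include them. The r of MYLK rests largely on its values of days -17 and 1, all below the filter level. These correlations are descriptions over 9 arrays that share the array-wide scaling and 3 day means. The summed signal of 9 vascular smooth muscle and pericyte markers had the same lowest pool as ACTA2, TAGLN and CNN1 on day 1 but not on the other days. In pools 1, 2 and 3 it was 9896, 9150 and 9434 on day -17, 10673, 9885 and 9429 on day 1, and 7719, 7483 and 8848 on day 17. Its lowest pool was thus pool 3 on day 1 and pool 2 on days -17 and 17. The part of vascular cells in the shared deviations was not tested.

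**Figure D4:**
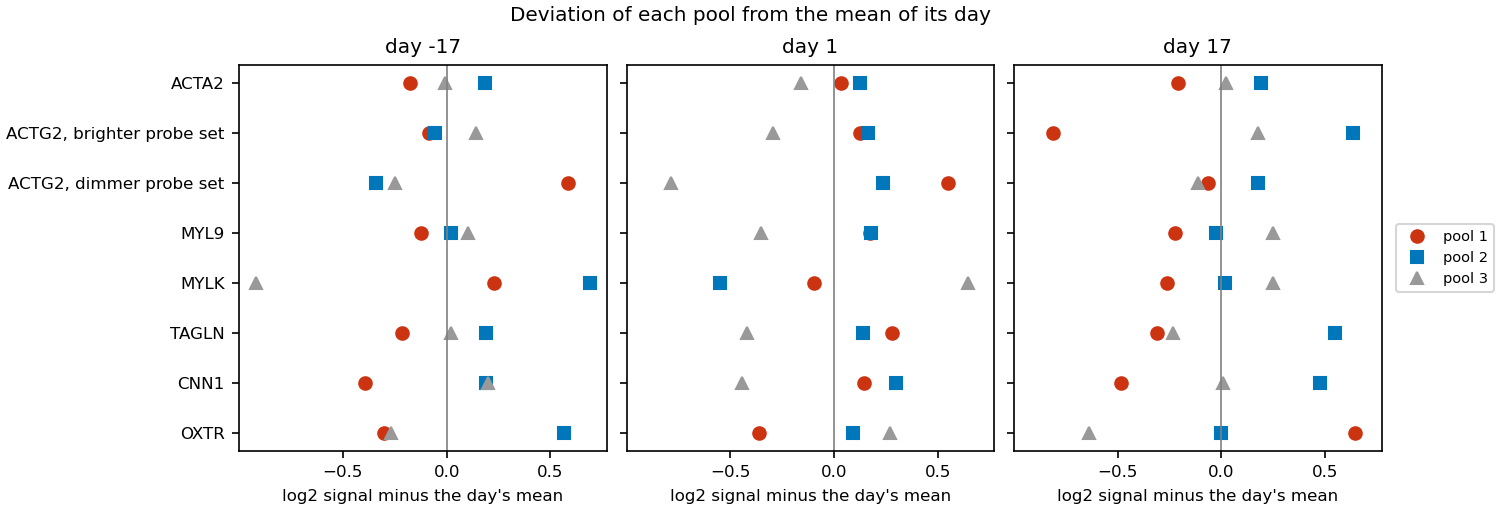
Log2 signal of each probe set in pools 1, 2 and 3 minus the mean of its day. For ACTA2, the brighter ACTG2 probe set, MYL9, TAGLN and CNN1, pool 3 is lowest on day 1 and pool 1 is lowest on days -17 and 17, while OXTR is highest in pool 1 on day 17.

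Markers of cells that share or surround the contractile genes changed unevenly. Of the 9 vascular smooth muscle and pericyte markers, 1 rose and 1 fell on day 1 against day -17, 0 rose and 2 fell on day 17 against day 1, and 1 rose and 3 fell on day 17 against day -17. Their medians were 0.03, -0.12 and -0.14. Of all tested probe sets, 12% rose and 12.1% fell on day 1 against day -17. The shares were 7.02% and 6.61% on day 17 against day 1, and 21.7% and 24.8% on day 17 against day -17. RGS5, a pericyte regulator of G protein signalling, was the one that rose, with a mean signal of 3995 on day 17 against 2465 on day -17 (0.70 ± 0.17, adjusted p = 0.00829). PDGFRB, the receptor of pericytes and fibroblasts for platelet-derived growth factor, fell (-0.74 ± 0.22, adjusted p = 0.018), as did MCAM, an adhesion molecule of vessel walls (-0.98 ± 0.23, adjusted p = 0.00577). CSRP2 was the third that fell and had the largest difference (-3.13 ± 0.22, adjusted p = 6.51e-06). It was also the 1 that fell on day 1 against day -17, and with MCAM 1 of the 2 on day 17 against day 1. CSRP2 is counted again in the list of actin anchoring below. DES, the muscle intermediate filament desmin, did not pass (0.26 ± 0.53).

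Of the 2 tested basal markers, DST, a linker of keratin filaments to hemidesmosomes, fell on day 17 against day -17 (-1.15 ± 0.39, adjusted p = 0.0337). The signals of DST were 3505, 2067 and 2225 on day -17, 2734, 861 and 1000 on day 1, and 1317, 896 and 1258 on day 17. TRIM29 did not pass (-0.12 ± 0.47). On day 17 against day -17, where 21.7% of all tested probe sets rose and 24.8% fell, 0 of 9 fibroblast markers rose and 6 fell (median -1.46). Of 13 luminal epithelial markers 5 rose and 3 fell (median 0.31). Scaling to the spiked controls takes 1.28 off each of these differences, which turns the sign for RGS5, DES and the luminal median. Apart from CSRP2, no fit of a marker without 1 array and no other probe set of a marker is given. The part of these cell types in the values of the contractile genes was not tested.

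The other genes of contraction were counted from 6 lists by role, and a gene with several tested probe sets by the one of highest mean log2 signal. The counts of all 6 lists stand beside the shares of all tested probe sets. On day 1 against day -17 12% of these rose and 12.1% fell. On day 17 it was 7.02% and 6.61% against day 1, and 21.7% and 24.8% against day -17. No count of a list was itself tested. Of 13 tested actin filament and tropomyosin genes (of 15 listed), 1 rose and 1 fell on day 1 against day -17, 0 rose and 3 fell on day 17 against day 1, and 0 rose and 2 fell on day 17 against day -17. The medians were 0.16, -0.31 and 0.05. In all 6 lists, scaling to the spiked controls lowers the medians by 0.42, 0.86 and 1.28, which takes each one above 0 below it. CNN3, a calponin that is not restricted to muscle, fell to a mean of 2506 on day 17, against 8972 on day -17 (-1.86 ± 0.24, adjusted p = 0.000206). Its falls between neighbouring days were -0.94 ± 0.24 on day 1 against day -17 (adjusted p = 0.0181) and -0.92 ± 0.24 on day 17 against day 1 (adjusted p = 0.0297). Neither passed in every fit. The first did not when pool 1 or 2 of day -17 or pool 2 or 3 of day 1 was left out (adjusted p from 0.0542 to 0.0583). The second did not when pool 1 or 3 of day 1 or pool 1 or 2 of day 17 was left out (0.0639 to 0.0899).

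TPM2, beta tropomyosin, fell on day 17 against day -17 (-1.16 ± 0.24, adjusted p = 0.00328), but its other 3 tested probe sets were divided, since 1 also fell and 2 had the opposite sign and did not pass. Against day 1 it fell by 0.99 on the log2 scale (adjusted p = 0.0241), which did not pass when pool 2 of day 1 or pool 1 or 3 of day 17 was left out (0.0698 to 0.0832). There the other 3 probe sets of TPM2 gave -1.02 (adjusted p = 0.0336), 0.31 (0.723) and -0.04 (0.929). TPM4, a tropomyosin of many cell types, rose on day 1 against day -17 (0.52 ± 0.11, adjusted p = 0.00835), but did not pass when scaled to the spiked controls (0.10, adjusted p = 0.455). Its other probe set did not pass in that comparison either (0.27, adjusted p = 0.0994). On day 17 against day 1 TPM4 fell (-0.47 ± 0.11, adjusted p = 0.0208), and day 17 against day -17 did not pass (0.05 ± 0.11, adjusted p = 0.747). For these day 17 values neither the other probe set nor a fit without 1 array is given.

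The myosin list had 2 tested genes of 7, and both fell on day 17. For day 1 against day -17 limma called 0 of them, and 1 had an unadjusted p under 0.05. MYH9, a non-muscle myosin heavy chain, had a mean signal of 5399 on day 17 against 9385 on day -17 (-0.79 ± 0.12, adjusted p = 0.000481), while its other probe set rose by 3.41 (adjusted p = 9.81e-06). Against day 1 the difference was -0.47 ± 0.12 (adjusted p = 0.0261), and there too the other probe set rose (1.58, adjusted p = 0.00525). This fall did not pass when pool 2 or 3 of day 1 or any pool of day 17 was left out (0.0556 to 0.0922).

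MYL6, the essential light chain, fell by 0.28 on the log2 scale on day 17 against day -17 (adjusted p = 0.0436) and by 0.40 on day 17 against day 1 (adjusted p = 0.0283). Against day -17, it was not called after median centring (adjusted p = 0.198), with no filter (0.0802) or with the pool number as a block (0.0515). Nor was it without pool 1 or 3 of day -17, pool 2 of day 1 or any pool of day 17 (0.0533 to 0.127). Against day 1, MYL6 was not called with no filter (0.0549) or without pool 2 or 3 of day 1 or any pool of day 17 (0.0519 to 0.0933).

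Of 7 tested genes that control the light chain kinase and phosphatase (of 14 listed), 1 rose and 1 fell on day 1 against day -17, and 1 rose and 2 fell on day 17 against day -17. On day 17 against day 1 limma called 0 of the 7, and 0 had an unadjusted p under 0.05. The medians were -0.06, -0.03 and -0.0037 in these 3 comparisons. RHOA, the small GTPase that holds the phosphatase back through its kinase, rose on day 17 against day -17 (0.66 ± 0.14, adjusted p = 0.00318), which flips to -0.61 when scaled to the spiked controls. ROCK1, that kinase, fell (-0.87 ± 0.20, adjusted p = 0.00634), while its other probe set gave 0.17 and did not pass. CAMK2D, a calcium and calmodulin-dependent kinase, also fell (-0.74 ± 0.19, adjusted p = 0.00984).

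On day 1 against day -17 RHOA rose (0.53 ± 0.14, adjusted p = 0.0203) and CAMK2D fell (-0.60 ± 0.19, adjusted p = 0.0421). The rise of RHOA did not pass without pool 2 or 3 of day -17 or pool 3 of day 1 (0.0539 to 0.0705), after quantile normalization (0.0549) or when scaled to the spiked controls (0.11, adjusted p = 0.561). The fall of CAMK2D did not pass without pool 1 or 3 of day -17, pool 2 or 3 of day 1 or pool 1 or 2 of day 17 (0.0526 to 0.134).

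Of 9 tested genes between the receptor and calcium (of 20 listed), 1 rose and 0 fell on day 1 against day -17, 1 rose and 2 fell on day 17 against day 1, and 1 rose and 3 fell on day 17 against day -17. The medians were 0.07, -0.09 and -0.06. ORAI1, the pore of store-operated calcium entry, had mean signals of 604 on day -17, 3153 on day 1 and 5095 on day 17. It rose by 2.37 ± 0.17 on day 1 (adjusted p = 2.06e-05) and by 3.08 ± 0.17 on day 17 (adjusted p = 1.18e-06), both against day -17. Its difference on day 17 against day 1 (0.71 ± 0.17, adjusted p = 0.0221) flips to -0.15 when scaled to the spiked controls. It did not pass without pool 2 of day 1 or any pool of day 17 either (0.0545 to 0.0812).

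RGS2, which shortens signalling by the G protein that the oxytocin receptor uses, fell to a mean of 789 on day 17, against 3503 on day -17 (-2.16 ± 0.25, adjusted p = 0.000111). Against day 1 it fell by 1.81 on the log2 scale (adjusted p = 0.00277), while its other probe set did not pass in either comparison (0.02 against day -17 and -0.41 against day 1). RGS4, a relative, fell on day 17 against day 1 (-1.59 ± 0.28, adjusted p = 0.00764) and against day -17 (-0.80 ± 0.28, adjusted p = 0.0406). Against day -17 RGS4 did not pass after quantile normalization (0.0671) or without pool 2 or 3 of day -17 or pool 1 or 3 of day 17 (0.0787 to 0.133).

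In the list of actin anchoring at adhesions and dense bodies, 0 of 16 tested genes (of 26 listed) rose by limma in each of the 3 comparisons, and at an unadjusted p under 0.05 1, 0 and 1 did. The falls numbered 4 on day 1 against day -17, 5 on day 17 against day 1 and 7 on day 17 against day -17. The medians were 0.11, -0.47 and -0.36. CSRP2, a LIM protein of smooth muscle and one of the vascular markers above, had signals of 184, 136 and 136 on day 17, against 1081, 1341 and 1575 on day -17. All day 17 pools lay below all others, and it fell both against day -17 (-3.13 ± 0.22, adjusted p = 6.51e-06) and against day 1 (-2.35 ± 0.22, adjusted p = 0.00083). FHL1, a LIM protein of muscle, fell on day 17 against day -17 (-2.49 ± 0.66, adjusted p = 0.0111).

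On day 1 against day -17 the actin cross-linker filamin A, FLNA, fell (-0.65 ± 0.19, adjusted p = 0.0315), as did CSRP2 (-0.78 ± 0.22, adjusted p = 0.0287). FLNA did not pass without pool 2 or 3 of day -17 or pool 2 or 3 of day 1 (0.0737 to 0.111). CSRP2 did not pass without pool 2 or 3 of day -17 or pool 1 or 3 of day 1 (0.0653 to 0.103) or after median centring (0.0583). PDLIM7, a LIM protein on actin fibres, fell on day 17 against day 1 (-0.73 ± 0.20, adjusted p = 0.0365). It did not pass without pool 3 of day -17, pool 1 or 2 of day 1 or pool 1 or 3 of day 17 (0.0555 to 0.114).

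Of 4 tested genes that steer smooth muscle transcription (of 13 listed), 1 rose and 1 fell on day 1 against day -17, 0 rose and 1 fell on day 17 against day 1, and 2 rose and 1 fell on day 17 against day -17. The medians were 0.13, -0.39 and -0.08. JAG1, a Notch ligand, was the one that fell, with mean signals of 2385 on day -17, 1631 on day 1 and 1109 on day 17. Its difference on day 17 against day -17 was -1.10 ± 0.15 (adjusted p = 0.00027), and its other probe set passed in none of the 3 comparisons (-0.35 on day 1 against day -17, 0.13 on day 17 against day 1 and -0.21 on day 17 against day -17). On day 1 against day -17 it was -0.56 ± 0.15 (adjusted p = 0.0215), not called without pool 1 or 3 of day -17 or pool 2 or 3 of day 1 (0.0546 to 0.077). On day 17 against day 1 it was -0.54 ± 0.15 (adjusted p = 0.0353), not called without pool 3 of day -17, pool 1 or 2 of day 1 or any pool of day 17 (0.0547 to 0.095).

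TGFB1, which induces smooth muscle genes in many cells, rose on day 1 against day -17 (0.64 ± 0.14, adjusted p = 0.0103), but not when scaled to the spiked controls (0.22, adjusted p = 0.289). On day 17 against day -17 it rose as well (0.39 ± 0.14, adjusted p = 0.0425), and this was lost without any 1 array other than day 1 pool 1 (0.0501 to 0.123). The other TGFB1 probe set passed in neither comparison (0.14 on day 1 and 0.015 on day 17). TEAD1, a transcription factor of muscle promoters, rose on day 17 against day -17 (0.84 ± 0.24, adjusted p = 0.0177), lost without pool 3 of day -17 (0.0681) or pool 1 of day 17 (0.0673). Both signs flip for that comparison when scaled to the spiked controls, to -0.44 for TEAD1 and -0.88 for TGFB1.

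**Figure D5:**
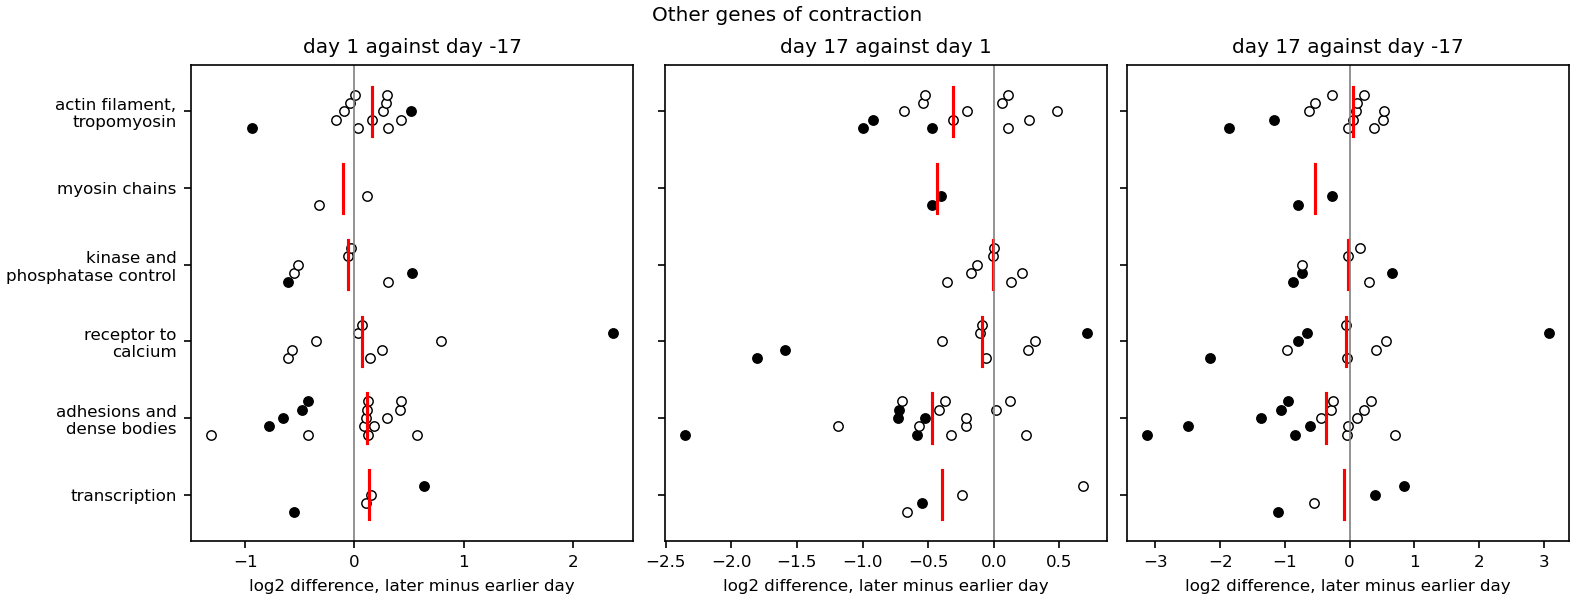
Log2 difference of the later minus the earlier day for each tested gene of the 6 lists of other contraction genes; filled points had an adjusted p under 0.05 and the red line is the median of the list. The adhesion and dense body list has filled points only below 0 in all 3 panels; the rises of RHOA, TEAD1 and TGFB1 on day 17 against day -17 and of ORAI1 on day 17 against day 1 change sign when arrays are scaled to the spiked controls.

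For each member probe set, the genes with the most similar log2 signal over the 9 arrays were sought among 5507 other named genes. TAGLN was closest to PDLIM7 (Pearson r = 0.94), which is also in the list of actin anchoring. MYL9 was closest to C7H6orf52, TMEM63A and CMPK1 (0.98, 0.98 and 0.97), the brighter ACTG2 probe set to HSD17B7, PRDX4 and TNIP1 (0.95, 0.94 and 0.93), and the dimmer one to IGFBP5, MCMBP and NID2 (0.99, 0.99 and 0.98), so the nearest genes of these probe sets of ACTG2 did not coincide. ACTA2 was closest to GTPBP1, REEP4 and ITFG2 (0.95, 0.94 and 0.93), MYLK to FZD5, PLPPR2 and MFSD6 (0.98, 0.97 and 0.97) and OXTR to TM4SF5, C6H1orf174 and SLC5A10 (0.97, 0.95 and 0.94). CNN1 had the weakest nearest neighbours, RAB8A, C17H8orf4 and NAA35 (0.80, 0.79 and 0.77), and those of TAGLN after PDLIM7 were TMEM2 and HDGFL2 (0.92 and 0.90). These correlations mix differences between days with differences between pools and are given as a description.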

How the data were processed

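Per the submitters' processing notes, MAS5 gave the values the authors deposited, which are linear signal intensities of 24123 probe sets on 9 arrays. Its version is not given in the sources used here. The trimmed mean lay between 499.87 and 499.90 on every array. After 124 Affymetrix control probe sets had been left out, log2 was taken with no pseudocount. A single fit of all arrays on day used limma 3.58.1 (R 4.3.3) with trended eBayes, 10.3 degrees of freedom and two-sided p-values. The code was tested on simulated data. An exact test of 3 against 3 pools cannot give a p under 0.1, so none was used.

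The platform annotation gives 1 symbol for 10099 probe sets, several for 198 and none here for 13826. Members, lists, the rule for naming list genes (the 2 largest called rises and falls of a list in each comparison) and alternatives were chosen with earlier results of these data known. Named outside that rule are the markers and the values of TPM4 on day 17.

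No label says that a pool number stands for the same sows. Deviations from the day's mean correlated for equal numbers at 0.235 to 0.506 (day 1 against day -17), 0.105 to 0.130 (day 17 against day -17) and 0.096 to 0.107 (day 17 against day 1). For unequal numbers the values were -0.387 to 0.113, -0.0739 to -0.0421 and -0.0768 to -0.0268 in the same order. In each comparison all values of equal numbers thus lay above all others, and the main fit takes no account of this. The number was a block in an alternative. Other alternatives were quantile normalization, median centring, scaling to the spiked controls, a pseudocount of 16, no filter, a filter at the 60th percentile and leaving out each array. P-values measure the spread between pools.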

Additional observations from a re-analysis of the deposited data

How the results depend on the processing

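The number of called probe sets ranged, with 1 array left out, from 2110 to 4424 for day 1 against day -17 (3736 with all), from 1049 to 2109 for day 17 against day 1 (2116) and from 5887 to 7639 for day 17 against day -17 (7223), and scaling to the spiked controls gave 6974, 10953 and 13057. Among the 8 member probe sets, day 17 against day 1 had 0 to 2 calls with 1 array left out, 1 after quantile normalization or with the stricter filter (which tests neither MYLK nor OXTR) and 6 when scaled to the spiked controls. With the pool number as a replicate block, 4496, 2743 and 7825 probe sets were called; on day 17 against day 1 MYLK lost its call (adjusted p = 0.0619) and TAGLN gained one (-0.72, adjusted p = 0.0357), and no other member call changed.

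Signs turned when scaled to the spiked controls, by its construction, for ACTA2 (-0.095 on day 1 against day -17, -0.66 on day 17 against day 1 and -0.75 on day 17 against day -17), TAGLN (-0.16) and CNN1 (-0.17) on day 1 against day -17, MYL9 (-0.42) and ORAI1 (-0.15) on day 17 against day 1, and CNN1 (-1.13), OXTR (-0.11), RHOA (-0.61), TGFB1 (-0.88) and TEAD1 (-0.44) on day 17 against day -17. ACTA2 on day 17 against day 1 also turned after quantile normalization (-0.10). OXTR on day 1 against day -17 turned after quantile normalization (0.047), median centring (0.11) and without day -17 pool 2 (0.27) or day 1 pool 1 (0.17). On day 17 against day 1, the brighter ACTG2 probe set turned without day 17 pool 1 (range over the arrays left out -0.67 to 0.055), and CNN1 without day 1 pool 2 (0.05) or day 17 pool 1 (range -0.34 to 0.14). CNN1 on day 17 against day -17 turned without day -17 pool 1 (-0.05) or day 17 pool 2 (range -0.092 to 0.39). Other causes were not tested. Signals near the filter level limit what MYLK and OXTR can show.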
